A study of Danio rerio with 6 samples.

Results

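The microRNA (miRNA) miR-126 was measured by 1 probe for each arm of its hairpin, named dre-miR-126 and dre-miR-126* in the array files, and these 2 probes were taken by name from the 218 zebrafish miRNA probes on the array. The tissue was heart from adult Ekkwill zebrafish, a wild-type strain, kept in a constant light and dark cycle. There were 3 pools of regenerating hearts, collected 6 hours after scissors had removed a piece of the heart under the anaesthetic MS222, and 3 pools of uninjured hearts. The labels do not state how many hearts made up a pool. Regenerating replicates 1 and 2 and uninjured replicates 1 and 3 were stained with Cy3, and regenerating replicate 3 and uninjured replicate 2 with Cy5. The series design calls the replicates biological. An alternative fit, the shared-array block, joined regenerating replicate 1 and uninjured replicate 2 by a term of their own. In all other steps each sample counts as its own array.

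A miRNA is cut from a hairpin precursor, whose arms pair with each other, and 1 arm usually enters the silencing complex while the other is degraded. miR-126 is made mainly by endothelial cells, which line blood vessels, lymphatics and the inner surface of the heart. In mice and zebrafish it keeps growing vessels intact by repressing Spred1 and Pik3r2, inhibitors of signalling downstream of the vascular growth factor VEGF. The rarer arm, miR-126*, represses Dlk1 in mouse endothelium. In whole hearts, fewer cells of a type and less RNA per cell cannot be told apart, and no second endothelial miRNA was among the markers used, so the cell of origin was taken from background knowledge and not from these data.

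The target sequences of both probes are shown because the arms are read by separate probes, which could share signal if these sequences were alike. Other ways of sharing signal were not tested. Capitals mark the seed, bases 2 to 8, which pairs with target messenger RNAs. Both were read from the array files.
miR-126: uCGUACCGugaguaauaaugc
miR-126*: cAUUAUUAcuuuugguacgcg
Each target is 21 nucleotides long, with 42.9% G and C in miR-126 and 38.1% in miR-126*, against a median of 43.2% over the 218 probes. The 2 targets lie at an edit distance of 15 from each other. The closest other target on the array was miR-200c at an edit distance of 7 for miR-126, and miR-137, miR-181b and miR-181c at 9 for miR-126*. Among the other probes, 0 shared the seed of either arm.

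In the GRCz12tu annotation of RefSeq the name dre-mir-126 belongs to the gene mir126a, which lies within the span of the long non-coding RNA gene LOC141375582, between pierce1 and fnbp1a. A second gene, mir126b, lies within the span of egfl7, the endothelial gene that hosts miR-126 in mammals. The array held no probe named for miR-126b, and how far the miR-126 probe reads its product was not tested.

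miR-126 gave one of the brightest signals of each array, and its arm miR-126* one close to background. After subtraction of the local background, the mean of the 12 spots of miR-126 was 38654, 35997 and 26583 intensity units in regenerating replicates 1, 2 and 3, against 41199.9, 38376 and 39335 in uninjured replicates 1, 2 and 3. The groups overlapped on this unscaled level, since regenerating replicate 1 read above uninjured replicate 2, and regenerating replicate 3 was the lowest of all. The coefficient of variation over the 12 spots ran from 1.88% to 7.69% in the regenerating samples and from 1.02% to 8.46% in the uninjured ones. In regenerating replicate 1, 5 of the 12 spots lay within 5% of the brightest spot of the array, and 0 did on the other arrays; the files carry no saturation flag, and the part of compression at the bright end was not tested.

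miR-126* read 73.0, 72.2 and 13.0 intensity units above local background in regenerating replicates 1, 2 and 3, against 23.6, 43.7 and 53.8 in uninjured replicates 1, 2 and 3. The limit of detection of an array was set at 3 SDs of its empty spots, and the same means were 1.96, 0.508 and 0.756 times that limit in the regenerating samples, against 1.38, 4.07 and 1.74 times in the uninjured samples. The rarer arm was thus detected in 1 of 3 regenerating samples and in 3 of 3 uninjured samples. Of all 218 probes, 217, 110 and 124 were above the limit in regenerating replicates 1, 2 and 3, against 144, 132 and 141 in uninjured replicates 1, 2 and 3. The arm itself ranked 129, 173 and 131 of 218 in the regenerating replicates, against 130, 111 and 119 in the uninjured ones. Regenerating replicate 3, without detection, and uninjured replicate 1, with detection, thus held nearly the same rank. The limit of regenerating replicate 2 was the highest, at 142 intensity units against 10.8 to 37.2 on the other arrays. All 12 spots of miR-126* were above the limit in regenerating replicate 1, 1 in replicate 2 and 3 in replicate 3, against all 12 in each uninjured sample. In regenerating replicate 2 the single spots ran from -41.9 to 242 around a mean of 72.2, with an SD of 74.4 over spots. The limit comes from single empty spots but is applied to a mean of 12, so a mean below it does not show that signal was absent.

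**Figure D1:**
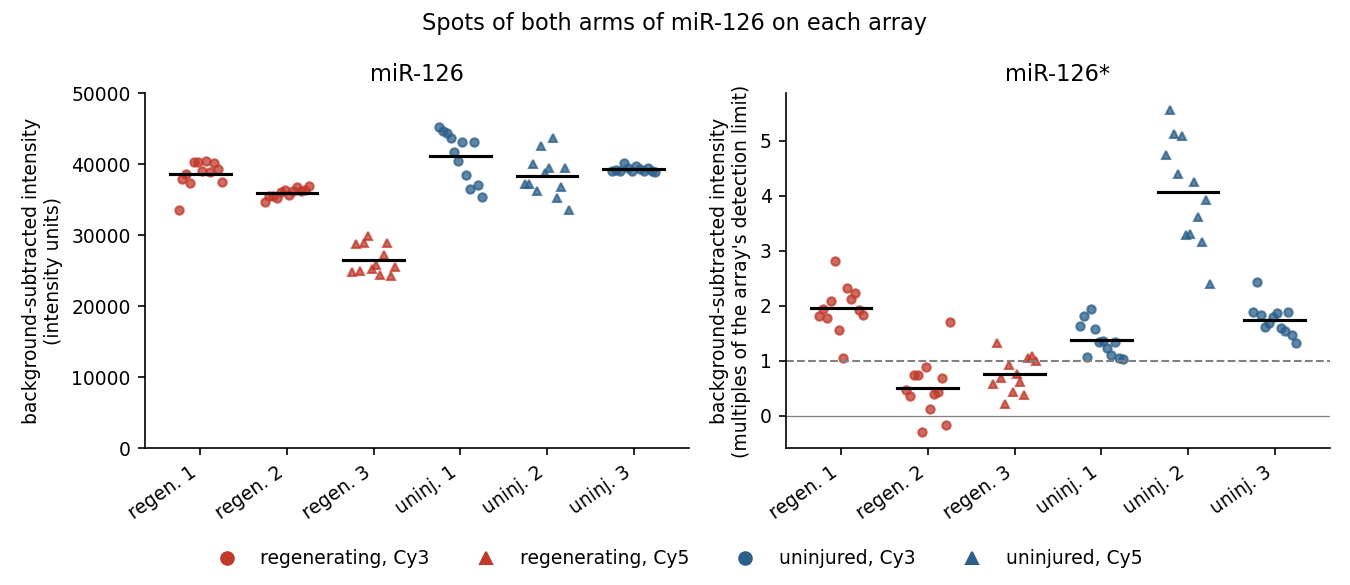
Each point is 1 of the 12 spots of a probe on 1 array (regenerating samples left, uninjured right; circles Cy3, triangles Cy5), and the black line is their mean. Left, background-subtracted intensity of miR-126 in intensity units, lowest in regenerating replicate 3; right, miR-126* in multiples of the detection limit of its array (dashed line at 1), where the means of regenerating replicates 2 and 3 lie below the limit at 0.508 and 0.756.

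Levels were compared after normexp background correction and quantile normalization, which gives all arrays the same distribution of values. miR-126 then stood at a log2 intensity of 15.15, 15.15 and 15.38 in regenerating replicates 1, 2 and 3, against 15.15, 15.06 and 15.15 in uninjured replicates 1, 2 and 3. The 4 equal values are a product of the method: miR-126 ranked 2 of 218 on each of the 4 Cy3 arrays, 1 in regenerating replicate 3 and 3 in uninjured replicate 2, and quantile normalization turns a rank into a level. The group means were 15.23 ± 0.13 in regenerating hearts and 15.12 ± 0.053 in uninjured hearts (SD, n = 3 each). The log2 difference of 0.10 (SE 0.13, 95% interval -0.22 to 0.43, limma adjusted p = 0.693) was within the spread between replicates, and its interval runs from 0.859-fold to 1.34-fold. As ranks set these levels, spread and interval describe ranked levels and do not bound the change in abundance. The interval was -1.09 to 0.60 with no scaling between arrays and -0.53 to 0.88 with 75th percentile scaling. The difference was 0 within the Cy3 samples, where the rank was the same, and 0.31 between the single Cy5 samples.

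miR-126* stood at 6.87, 6.64 and 6.85 in regenerating replicates 1, 2 and 3, against 6.86, 7.28 and 7.03 in uninjured replicates 1, 2 and 3. The groups overlapped by the narrow margin of 1 value, regenerating replicate 1 over uninjured replicate 1, and the highest value was that of uninjured replicate 2, a Cy5 sample. The means were 6.79 ± 0.13 in regenerating hearts and 7.06 ± 0.21 in uninjured hearts (SD, n = 3 each). The log2 difference of -0.27 (SE 0.14, 95% interval -0.62 to 0.082, limma adjusted p = 0.384) did not pass the threshold of 0.05. It was -0.19 within the Cy3 samples and -0.43 between the single Cy5 samples. The offset of 50 units added before the logarithm is of the size of the signal itself and pulls such differences towards 0.

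Of the 2 arms, 0 were called at an adjusted p below 0.05, where 5 of the 138 tested probes were called (3.62%; 2 higher, or 1.45%, and 3 lower, or 2.17%), and 0 had groups that did not overlap, where 33 of 138 did (23.9%). A larger size of change than that of miR-126 was found in 96 of the 138 probes, and than that of miR-126* in 61.

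The direction of both differences depended on the scaling of the arrays, as the 4 columns of the plot of levels show. With no scaling between arrays the log2 difference was -0.25 for miR-126 and 0.47 for miR-126*, and with 75th percentile scaling it was 0.18 and 0.89 (limma adjusted p = 0.722, 0.485, 0.761 and 0.197). With median scaling miR-126* rose by 1.22 and passed (limma adjusted p = 0.031), while miR-126 stood at 0.50 (limma adjusted p = 0.333). The highest values of miR-126* there, 8.39 and 7.35, were those of regenerating replicates 2 and 3, where this arm was below the limit of detection. In that fit 31 of the 138 probes passed, all 31 of them higher, and the median of all 138 was itself at 0.46. With scaling to 13 added calibration probes, whose amounts are not known, miR-126 stood at -0.68 (limma adjusted p = 0.312). All probes together had a median of -0.73 there. The groups did not overlap for miR-126 with calibration probes, nor for miR-126* with median scaling. The share of all probes without overlap was not computed for these scalings, so neither can be set against it. Relative to the median of all probes, miR-126 stood at 0.047 and miR-126* at 0.76, values that are the same by construction under every scaling by 1 factor per array. With quantile normalization miR-126 stood at 0.16 relative to that median and miR-126* at -0.22. With the authors' processed values they stood at 0.0077 and -0.26, so the direction of miR-126* relative to the median also turned with the processing. In the authors' processed values miR-126 averaged 29017 ± 2985 in regenerating hearts and 30158 ± 6243 in uninjured hearts, and miR-126* 38.8 ± 7.0 in regenerating hearts and 48.9 ± 14.1 in uninjured hearts (SD, n = 3 each). Neither difference passed on the log2 scale (limma adjusted p = 0.961 for miR-126 and 0.569 for miR-126*).

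**Figure D2:**
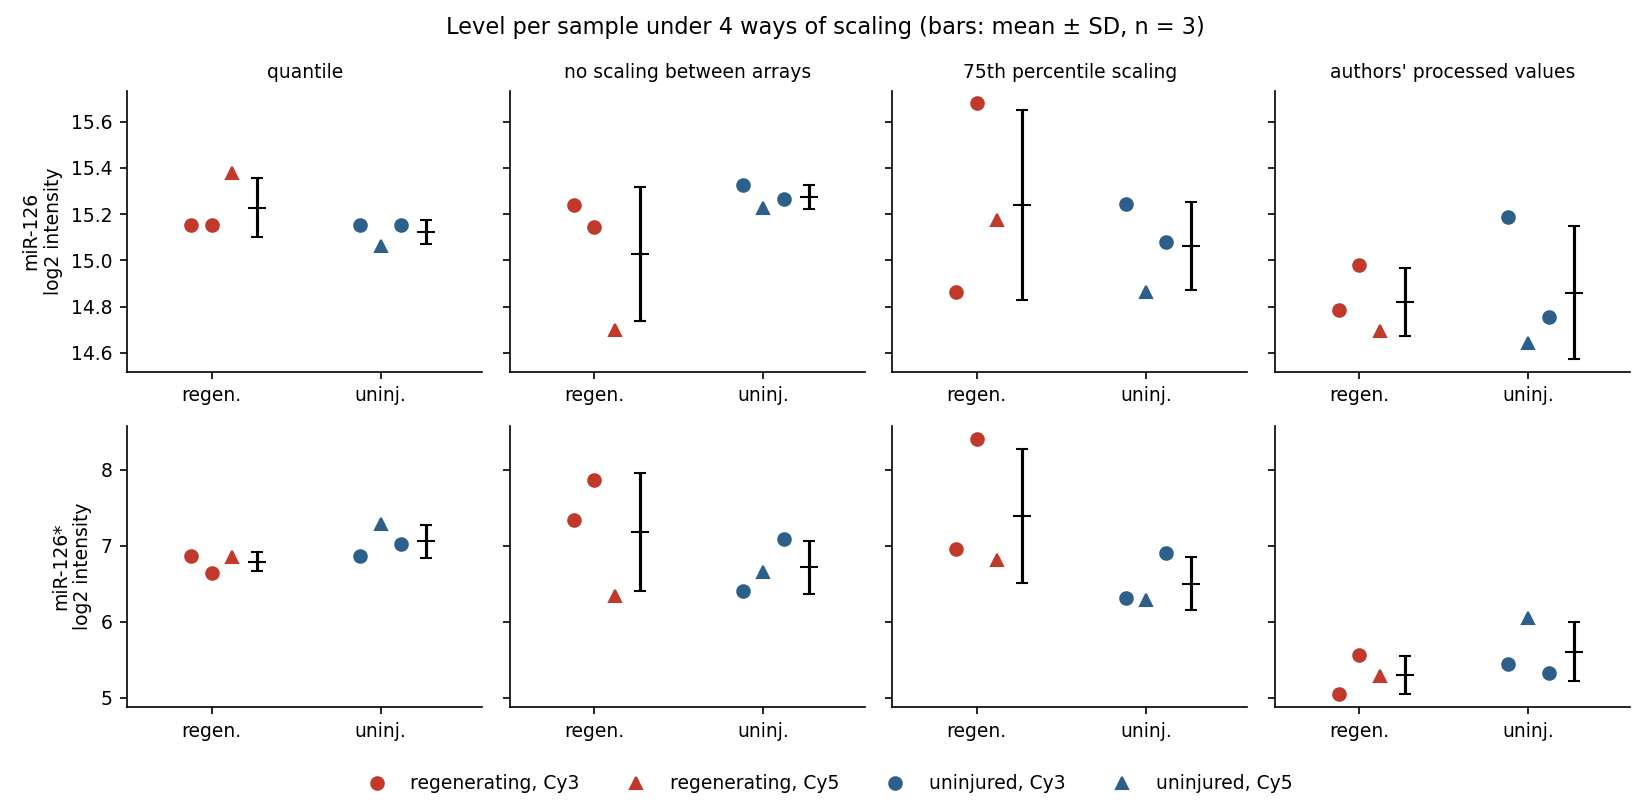
Log2 intensity of miR-126 (top) and miR-126* (bottom) in each sample under 4 scalings, regenerating left and uninjured right (circles Cy3, triangles Cy5), with mean ± SD (n = 3). The mean of miR-126* is lower in regenerating hearts with quantile normalization (6.79 against 7.06) and in the authors' values, and higher without scaling or with 75th percentile scaling; single values overlap in each panel.

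**Figure D3:**
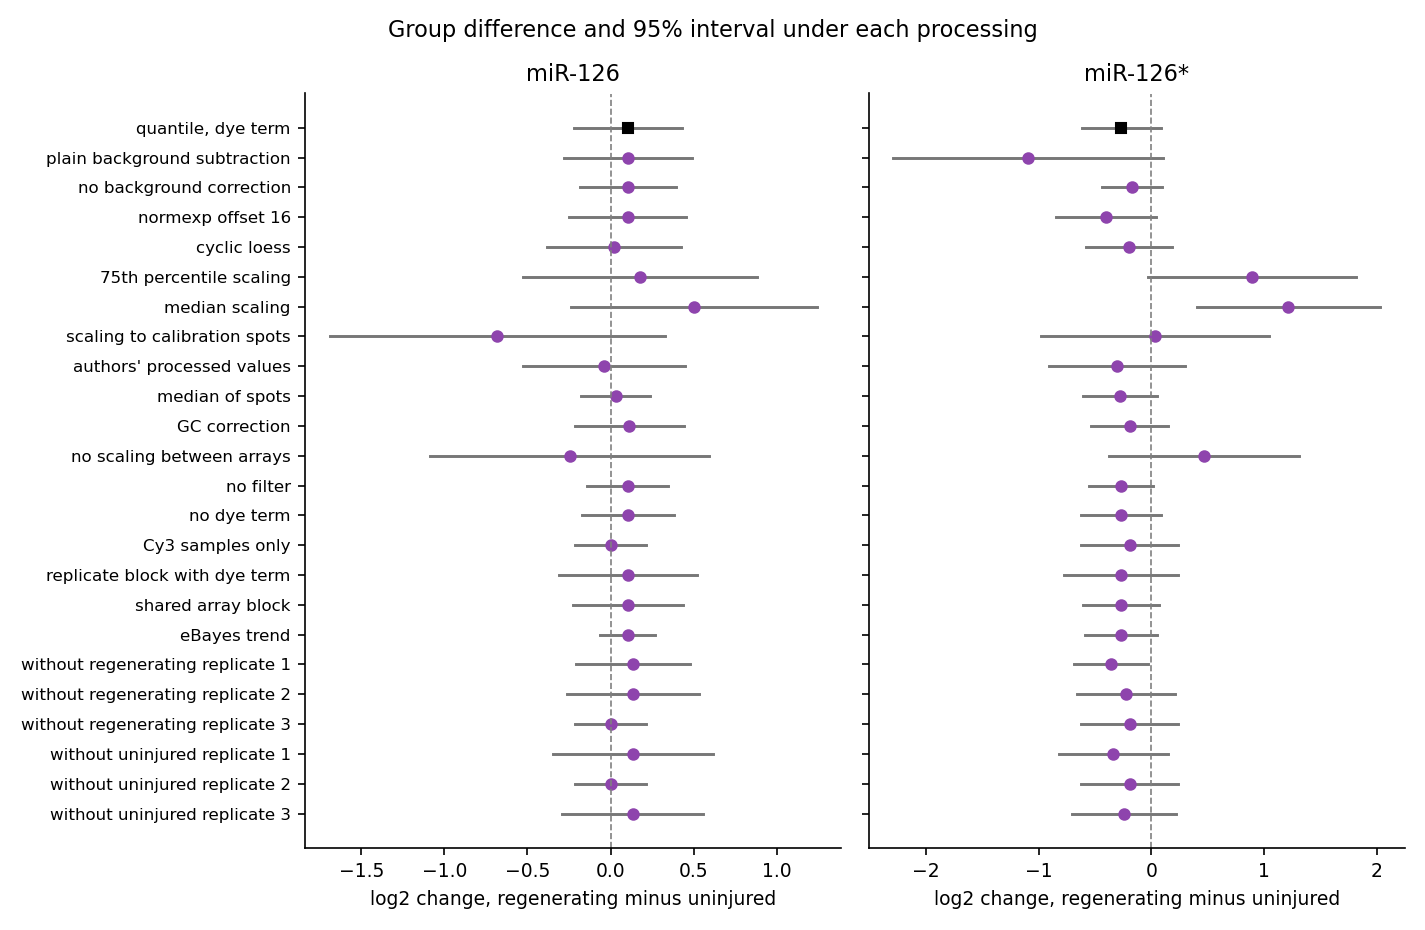
Log2 change of each arm, regenerating minus uninjured, with its 95% interval (line) under quantile normalization with a dye term (square) and each alternative (points). Intervals of miR-126 include 0 under each of the processings shown, and the estimate of miR-126* runs from -1.10 with plain background subtraction to 1.22 with median scaling.

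The ratio of the arms was taken within each array, where any single factor of that array cancels on background-subtracted intensities. After normexp a factor cancels only if it is applied after the offset of 50 units. Its level includes how well each probe binds, so only its differences between samples were compared. On background-subtracted intensities miR-126 read 530, 498 and 2038 times miR-126* in regenerating replicates 1, 2 and 3, against 1749, 878 and 731 times in uninjured replicates 1, 2 and 3. In regenerating replicates 2 and 3, where the rarer arm was below the limit of detection, the limit itself gives ratios of at least 253 and at least 1542. The ratio of regenerating replicate 1, the only regenerating sample with the rarer arm above the limit, was below all 3 uninjured ratios. On that array 217 of the 218 probes passed the limit, so passing it there says little about miR-126*. The arm ranked 129 there, against 131 in regenerating replicate 3, where it was below the limit. On subtracted intensities regenerating replicate 3 lies, by its bound, above uninjured replicates 2 and 3. Its order against uninjured replicate 1 is not settled. The bound of regenerating replicate 2 lies below all 3 uninjured ratios, so its order is not settled. Other processing gave regenerating replicate 3 another place. In the authors' values its ratio of 697 was below the 708 of uninjured replicate 3. With normexp and no scaling its log2 ratio of 8.36 was below the 8.58 of uninjured replicate 2.

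After quantile normalization the log2 ratio was 8.29, 8.51 and 8.52 in regenerating replicates 1, 2 and 3, against 8.30, 7.78 and 8.13 in uninjured replicates 1, 2 and 3. Regenerating replicate 1 lay just below uninjured replicate 1. The values of regenerating replicates 2 and 3 read above all uninjured ones, but miR-126* was below the limit of detection in both. Their place thus rests on a signal below that limit. The means were 8.44 ± 0.13 in regenerating hearts and 8.07 ± 0.26 in uninjured hearts (SD, n = 3 each), a difference of 0.37 (exact two-sided permutation test, p = 0.2; the smallest p that 3 against 3 allows is 0.1). The difference was 0.19 within the Cy3 samples and 0.74 between the single Cy5 samples. Without scaling between arrays the means were 7.85 ± 0.55 in regenerating hearts and 8.56 ± 0.38 in uninjured hearts (SD, n = 3 each), a difference of -0.71 (exact permutation p = 0.2), so the sign of the arm ratio turned with the normalization. With plain background subtraction before quantile normalization the difference was 1.20 (exact permutation p = 0.2). The limma fit over the hairpins tested gave it a 95% interval of 0.0955 to 2.30 (limma unadjusted p = 0.0342, adjusted p = 0.171). The difference of miR-126* alone was -1.10 in this setting (limma adjusted p = 0.309). Spots below 1 were set to 1 in this setting, among them miR-126* spots at -41.9 and -24.4 in regenerating replicate 2. The part of this floor in both differences was not tested. With the authors' processed values the log2 ratio averaged 9.56 ± 0.19 in regenerating hearts and 9.29 ± 0.60 in uninjured hearts (SD, n = 3 each). The difference was 0.27 (exact permutation p = 0.8), with -0.0031 within the Cy3 samples and 0.82 between the single Cy5 samples. On plain-subtracted intensities averaged over spots first, without scaling, it was -0.35. There it was -1.14 within the Cy3 samples and 1.22 between the single Cy5 samples.

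**Figure D4:**
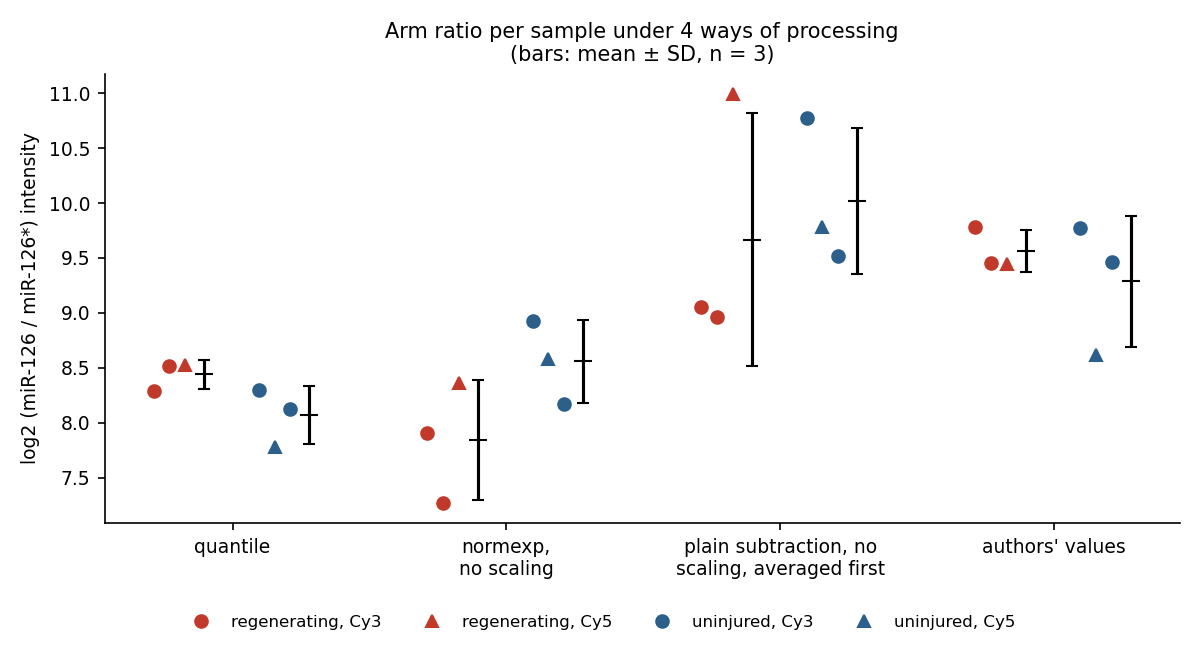
Log2 ratio of miR-126 to miR-126* intensity in each sample, regenerating (red) left of uninjured (blue), under 4 ways of processing (circles Cy3, triangles Cy5), with mean ± SD (n = 3). The regenerating mean is higher with quantile normalization and the authors' values and lower without scaling, both with normexp and with plain subtraction of spots averaged first.

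The array held both arms of 28 hairpins, and in 10 of them both arms were detected often enough to be tested. In a limma fit of the arm ratio over these 10, miR-126 had the fifth largest size of change, 0.37 (SE 0.31, 95% interval -0.27 to 1.01, limma adjusted p = 0.485). All 10 hairpins had the same SE, as the fit pooled their variances. The intervals and p-values thus rest on a spread shared by the hairpins. The SD of the miR-126 ratio itself was 0.13 in regenerating and 0.26 in uninjured hearts, and that of miR-133a was 0.85 and 0.079. One hairpin, that of the brain miRNA miR-129, was called (10% of those tested), with a log2 ratio higher by 1.27 in regenerating hearts (SE 0.31, limma adjusted p = 0.0032). The next largest changes were 0.54 for miR-133a, a miRNA of heart muscle, and -0.53 for miR-140, a miRNA of cartilage, and neither passed (limma adjusted p = 0.329 each). With a single scaling factor per array the fit called 0 hairpins higher and 2 lower, and the arm ratio of miR-126 stood at -0.71 (95% interval -1.61 to 0.18, limma adjusted p = 0.229).

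**Figure D5:**
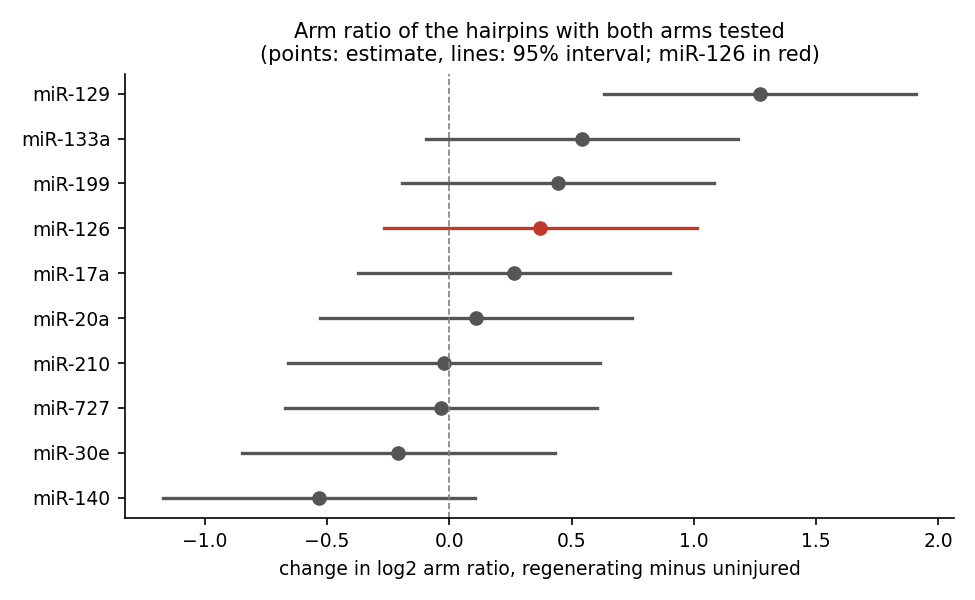
Change in the log2 arm ratio, regenerating minus uninjured, for the 10 hairpins with both arms tested. Points are limma estimates and lines 95% intervals, from an SE pooled over the hairpins. The interval of miR-126 (red) runs from -0.27 to 1.01 and includes 0; that of miR-129 does not.

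The level of miR-126 over the 6 samples was most like those of miR-23b (Pearson r = 0.85, Spearman rho = 0.78), let-7c (r = 0.85, rho = 0.36) and miR-100 (r = 0.85, rho = 0.72). As miR-126 takes 1 value on 4 of the 6 arrays, these correlations rest on the 2 Cy5 samples. miR-126* was most like miR-139 (r = 0.86, rho = 0.83), miR-92a (r = 0.85, rho = 0.70) and miR-724 (r = 0.84, rho = 0.93), each over 6 samples. miR-139 stood at a log2 intensity of 9.10, 8.37 and 8.57 in regenerating replicates 1, 2 and 3, against 8.99, 9.48 and 8.89 in uninjured replicates 1, 2 and 3, with the highest value in the same Cy5 sample as miR-126*. Between themselves the arms correlated at r = -0.42 and rho = -0.68 over the 6 samples, which share arrays and the dye. The 4 equal values of miR-126 enter here too, and miR-126* was below the limit of detection in regenerating replicates 2 and 3.

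Of the 31 miRNAs listed for roles in vessel growth and endothelial function, 28 were tested and 0 passed in either direction. Their log2 changes were above 0 for 15, below 0 for 12 and at 0 for miR-23a, with a median of 0.031 against -0.052 over all 138 probes, and 0.031 for the 26 other than the arms of miR-126. The largest changes were -0.70 for miR-218b (SE 0.33) and -0.55 for miR-218a (SE 0.42), which in mice lie in Slit genes, and -0.63 for miR-31 (SE 0.17); none of the 3 passed (limma adjusted p = 0.330, 0.537 and 0.130). miR-221, which in zebrafish promotes the migration of endothelial tip cells, stood at 0.28, and its cluster partner miR-222 at 0.42. miR-27b, which also acts in zebrafish vessel sprouting, stood at -0.39, and its relative miR-27a at -0.35. miR-10b, of a family that regulates vessel growth in zebrafish, stood at -0.047, and miR-10a, miR-10c and miR-10d were too dim to be tested.

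Markers of neighbouring cell types were set beside the endothelial probes with the same fit. In vascular smooth muscle 0 of 2 passed (miR-145 at 0.44, miR-143 at -0.19), and in heart muscle 0 of 4 (miR-133a at 0.28, miR-133b at 0.20, miR-499 at -0.074). In red blood cells 0 of 1 passed (miR-451 at 0.067, miR-144 being below the detection filter). In leukocytes 0 of 2 passed (miR-223 at 1.16, miR-150 at -0.038, miR-142a-3p and miR-142a-5p being below that filter). In epithelium 1 of 6 was called lower, miR-200b at -0.81 (limma adjusted p = 0.0352), where 3 of all 138 probes were (2.17%). Of the 6, 5 were below 0, among them miR-200c at -0.68, while miR-203b stood at 0.46. Their median was -0.35, against -0.052 over all 138 probes, and miR-203a was below the filter.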

How the data were processed

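Per the labels' protocols, a service company took RNA below 300 nucleotides, extended it with poly(A) and a tag, and used Cy3 or Cy5 as the dye. Per the file headers, the deposited spot files give the mean intensity and the within-spot spread of 3968 spots, 12 per miRNA probe, with no background subtraction visible in the values. A deposited table holds the authors' processed intensity of 267 probes; its values are linear, its scaling and background method are unknown, its column medians ran from 41.0 to 63.6, and it correlated with the values computed here at r of 0.976 to 0.987 per sample.

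Local background was the median of the 16 nearest of 1060 empty spots. Correction used normexp with an offset of 50 (limma 3.58.1, R 4.3.3), and values were converted to log2, averaged over spots and quantile normalized over 218 probes. A probe was tested if its subtracted mean passed 3 SDs of the empty spots in at least 3 of 6 samples (138 probes). Groups were compared with lmFit and eBayes, dye being a covariate, and Benjamini-Hochberg adjustment ran over all probes tested, with a threshold of 0.05. Named probes were the 2 arms, the 3 most correlated with each, list members past the threshold or among the 3 largest changes of a list, and the 3 hairpins with the largest change in arm ratio; miR-221, miR-222, miR-27a, miR-27b and miR-10b were added after their values were seen, for their known roles. The members and lists were chosen with earlier results of these data known. The steps were tested on simulated spots, with changes put only into probes brighter than miR-126*, so that test does not cover this arm. The number of arrays limits the precision. Samples numbered alike in the labels did not deviate together in every pair.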

Additional observations from a re-analysis of the deposited data

How the results depend on the processing

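Over 24 alternatives the difference of miR-126 passed the threshold in 0, and over 23 that of miR-126* passed in 1. In limma, leaving out either Cy5 sample repeats the fit of Cy3 samples only, as the dye term then fits the other exactly. These alternatives are thus counted but are not separate. For miR-126 it turned to -0.68 with scaling to calibration spots, -0.041 with the authors' values and -0.25 without scaling between arrays, and leaving out 1 sample gave 0 to 0.13. For miR-126* it turned to 0.89 with 75th percentile scaling, 1.22 with median scaling, 0.033 with calibration spots and 0.47 without scaling, and leaving out 1 sample gave -0.36 to -0.19. The arm ratio of 0.37 turned to -0.71 under each of these 4 scalings in both tests, equal by construction, and to -0.35 with unscaled plain-subtracted intensities averaged over spots before the ratio, which changes 3 steps at once. Plain background subtraction with quantile normalization kept the direction and gave 1.20 for the arm ratio and -1.10 for miR-126*, with negative spots raised to a floor of 1. The arm ratio ran from 0.23 to 0.49 with 1 sample left out in the permutation test and from 0.19 to 0.49 in limma. The limma ends of 0 for miR-126, -0.19 for miR-126* and 0.19 for the arm ratio are those of the Cy3-only fit. The causes were not tested. Omitting the scaling and that 3-step change are choices made after seeing the data. The 5 calls over all probes became 3 with plain subtraction, 31 with median scaling, 22 with calibration spots and 11 without scaling. They became 3 with GC correction (a linear correction for the G and C content of the target), 9 with the shared-array block and 3 with an eBayes trend. With Cy3 samples only there were 0. With 1 sample left out there were 0 to 33 (33 without regenerating replicate 1, 0 without either Cy5 sample, which is the Cy3-only fit again). With the replicate number as a block 1 probe was called, miR-126 stood at 0.10 and miR-126* at -0.27. Same-numbered samples deviated together at r of 0.14, -0.45 and 0.37, and not every sample correlated best with its own number. The highest r, 0.50, was between regenerating replicate 1 and uninjured replicate 2. These are the 2 samples joined in the shared-array block, a regenerating Cy3 and an uninjured Cy5 sample. The main fit left that block out. Deviations from a mean of 3 samples sum to 0, so these values cannot settle whether the number pairs samples. A filter on detection in all 6 samples leaves miR-126* out. For that arm, signal over background is the limit.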
